A study of Mus musculus with 6 samples.

Results

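Skeletal muscle sarcomere and calcium genes were followed here as 34 named genes among the 47729 genes of a table of RNA sequencing counts from mouse epidermis. The members were found by their gene symbol in the table, and all 34 were present. The table holds 3 libraries from skin that received a gel with AKBA and 3 from skin that received a gel without it, called control gel. AKBA is the usual short name of acetyl-keto-beta-boswellic acid, a compound of Boswellia resin. All mice were wild type on the C57BL/6 background, and the sources used here do not give their age. The control libraries are also described by the letters IMQ, left unexplained in the labels, and the sources used here do not say whether either group had a further treatment. The labels do not say that libraries are from separate animals, and the p-values reflect spread between libraries that may be technical.

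Skeletal muscle fibres shorten when thick filaments of myosin pull on thin filaments of actin within the sarcomere, the repeating unit between Z discs. A nerve impulse opens the calcium release channel of the sarcoplasmic reticulum, calcium binds to troponin on the thin filament, and a calcium pump then clears it. Fast fibres are typed by their myosin heavy chain, with Myh2 for type IIa, Myh1 for type IIx and Myh4 for type IIb, while slow fibres carry Myh7. Mouse skin lies on the panniculus carnosus, a thin sheet of skeletal muscle, and keratinocytes build no sarcomeres.

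The 6 libraries held 19066045 to 22760432 counts, so that 3 counts in a library, taken as the floor, correspond to 0.132 to 0.157 CPM (counts relative to the TMM-scaled size of the library). The members took 1.38%, 1.25% and 1.21% of all counts in AKBA libraries 1, 2 and 3 and 1.57%, 0.897% and 1.10% in control libraries 1, 2 and 3. The label names the tissue as epidermis, and summed CPM of 6 suprabasal keratinocyte markers ran from 24868 to 64265, beside 8692 to 15341 for the muscle members and 19206 to 35776 for 8 fibroblast markers. The libraries were thus a mixture that held muscle and dermal transcripts beside those of keratinocytes. In such bulk samples, fewer muscle cells and less RNA per muscle cell cannot be told apart.

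Levels of the 34 muscle members overlapped between the treatments for each gene. All 34 members passed the filter on low counts, and 0 passed an adjusted p of 0.05 by the quasi-likelihood test of edgeR, where 0% of the 17023 genes tested passed. At an unadjusted p under 0.05 there was 1 member, Myh1, beside 13.5% of all genes (6.45% higher and 7.01% lower with AKBA gel). DESeq2 called 0 members and 1.65% of the genes it tested, with a lowest adjusted p among members of 0.146. The authors' deposited table gave 0 members an adjusted p under 0.05, against 0.815% of all genes, and the lowest was 0.17 for Myh1.

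The AKBA and control libraries overlapped in CPM for every one of the 34 members, whereas 18.4% of all tested genes had no overlap (9.28% with AKBA gel higher and 9.1% lower). Without control library 1 the overlap was lost for 10 members, all higher with AKBA gel, beside 37.3% of all genes. Of the members, 19 had a log2 fold change (AKBA over control) above 0 and 15 below 0, with a median of 0.03 beside 0.00 over all genes tested. For 26 members the log2 fold change lay within 0.3 of 0. Summed over the members, the level was 14125, 12697.5 and 11286 CPM in AKBA libraries 1, 2 and 3 and 15341, 8692 and 11992 CPM in control libraries 1, 2 and 3. The group means were 12703 ± 1419 and 12008.5 ± 3325 CPM (SD, n = 3 each), a log2 ratio of 0.08. Control libraries 1 and 2 were the highest and lowest of all, so the AKBA libraries lay within the range of the controls. The top place of control library 1 rested on Myh4. Without it the members took 1.37%, 1.25% and 1.13% of all counts in AKBA libraries 1, 2 and 3. In control libraries 1, 2 and 3 they took 1.34%, 0.828% and 1.09%, so that AKBA library 1 was the highest and control library 2 still the lowest.

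Control libraries 1 and 2 also held the extremes for many members taken singly. Control library 1 was the highest for 17 members, and control library 2 the lowest for 23. AKBA libraries 1 and 2 were each highest for 6 members, and control library 3 for 5. For 27 members the highest library was less than 3 times the lowest.

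**Figure D1:**
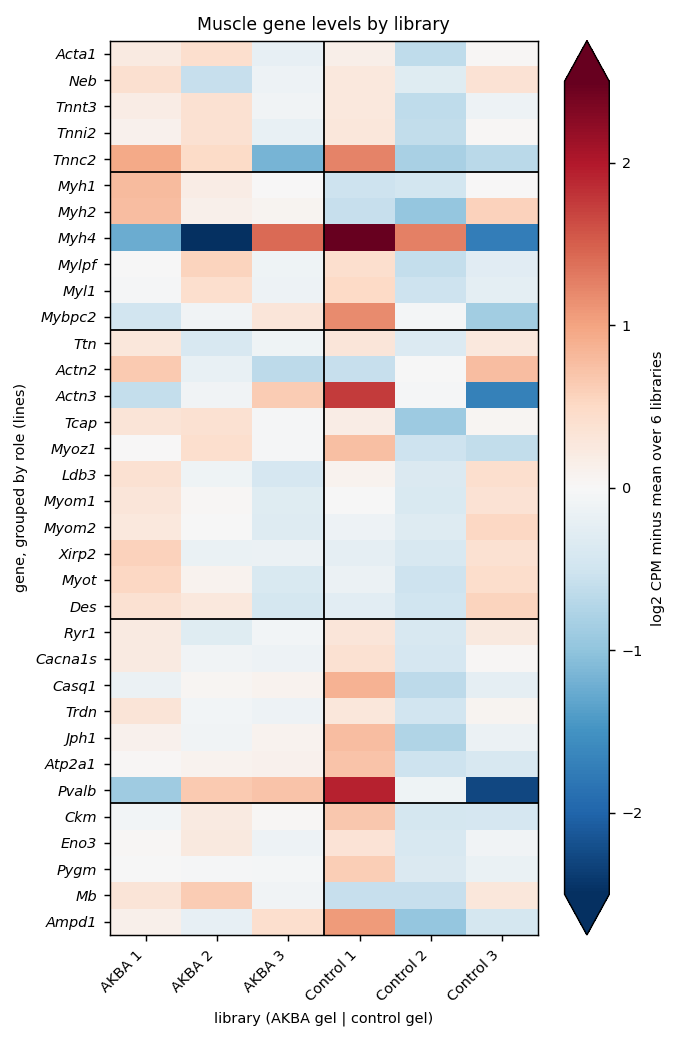
Heat map of the 34 members (rows, grouped by role with lines between groups) in the 6 libraries (columns), coloured by log2 CPM minus the mean of that gene over the libraries, red for higher and blue for lower. The column of control library 2 is blue for most genes and lowest for 23, while the rows of Myh4, Pvalb and Actn3 hold the deepest colours under both treatments.

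The promoters of the 3 adult fast myosin heavy chain genes are shown first, because these genes stand side by side in the genome, and Myh4 had a wider range between libraries (52.2-fold) than Myh1 (2.49-fold) or Myh2 (3.30-fold). On mouse chromosome 11 (GRCm38, forward strand) the protein-coding order is Myh3, Myh2, Myh1, Myh4, Myh8 and Myh13, with Myh2 at 67171027 to 67197517, Myh1 at 67200052 to 67224575 and Myh4 at 67238029 to 67260446. Each sequence is the 250 bases before the RefSeq start of transcription (GRCm38.p6), printed 5′ to 3′ on the strand of the gene. Capitals mark the E-box (CANNTG), the CArG box, the MEF2 site and the TATAAA box found on either strand, and a TATAAA match on the reverse strand lies inside the MEF2 match of Myh1 and of Myh4. The windows are chr11:67170777-67171026 (+) for Myh2, chr11:67199852-67200101 (+) for Myh1 and chr11:67237562-67237811 (+) for Myh4.
Myh2: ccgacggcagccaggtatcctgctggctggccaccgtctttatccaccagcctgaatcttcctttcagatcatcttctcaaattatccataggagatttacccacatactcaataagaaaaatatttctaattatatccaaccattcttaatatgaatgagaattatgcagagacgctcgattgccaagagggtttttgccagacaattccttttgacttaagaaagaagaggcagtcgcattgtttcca
Myh1: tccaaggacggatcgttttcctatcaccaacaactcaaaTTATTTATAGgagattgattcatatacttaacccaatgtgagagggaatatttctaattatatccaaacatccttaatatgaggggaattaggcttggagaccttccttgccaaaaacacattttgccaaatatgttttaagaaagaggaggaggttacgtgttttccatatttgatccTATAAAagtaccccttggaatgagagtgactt
Myh4: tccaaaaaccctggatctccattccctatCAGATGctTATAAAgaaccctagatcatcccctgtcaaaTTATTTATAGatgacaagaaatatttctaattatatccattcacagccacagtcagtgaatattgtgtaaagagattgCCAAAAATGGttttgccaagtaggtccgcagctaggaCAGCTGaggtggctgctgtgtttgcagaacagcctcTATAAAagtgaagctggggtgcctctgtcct
Myh2 had no match to any of the 4 motifs in this window. Myh1 and Myh4 each had a MEF2 match of the same letters and a TATAAA match starting 32 and 31 bases before the start. Only Myh4 of the 3 had a CArG match, 104 to 95 bases before the start, and E-box matches, at 221 to 216 and 67 to 62 bases.

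RefSeq windows were found for 23 of the 34 members, 27 windows in all because some genes have several starts. An E-box was in 21 of these 27 windows and in 66.2% of all 32851 mouse windows of the same length. The CArG box was in 5 of 27 and in 1.47% of all, the MEF2 site in 5 of 27 and in 2.92% of all, and TATAAA in 4 of 27 and in 12.4% of all. These matches describe letters in a window and say nothing of which factors bind there. Acta1 (chr8:123894776-123895025, -) and Mybpc2 (chr7:44524670-44524919, -) are printed as a gene that held a steady share of the muscle counts and a gene that did not, as described further on.
Acta1: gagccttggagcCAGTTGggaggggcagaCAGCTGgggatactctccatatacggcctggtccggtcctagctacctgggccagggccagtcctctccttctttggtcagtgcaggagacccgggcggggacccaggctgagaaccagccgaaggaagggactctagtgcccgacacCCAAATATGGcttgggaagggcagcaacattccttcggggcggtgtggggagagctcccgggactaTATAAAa
Mybpc2: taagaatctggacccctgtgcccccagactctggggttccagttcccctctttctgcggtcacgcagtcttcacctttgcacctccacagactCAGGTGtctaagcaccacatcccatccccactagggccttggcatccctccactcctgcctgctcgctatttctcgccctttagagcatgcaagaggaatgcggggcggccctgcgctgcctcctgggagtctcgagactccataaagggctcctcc
Acta1 had 2 E-boxes, a CArG box and a TATAAA box, and Mybpc2 had 1 E-box.

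Among the thin filament genes, skeletal actin was the most abundant member per transcript length. Acta1, the actin of the skeletal thin filament, averaged 1520 FPKM (the deposited level per transcript length) and was followed among all members by Tnnt3 at 321, Mylpf at 302, Atp2a1 at 257 and Myh1 at 232 FPKM. These 5 genes made up 57.7% of the summed FPKM of the members. Acta1 was at 2489, 2851 and 1847 CPM in AKBA libraries 1, 2 and 3 and at 2372, 1375 and 2178 CPM in control libraries 1, 2 and 3. Control library 2 was the lowest and AKBA library 2 the highest, with the others intermixed. The log2 fold change of Acta1 was 0.28 ± 0.27 (SE), with an adjusted p of 0.683 by edgeR.

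Neb encodes nebulin, the giant protein that runs along the thin filament. Its level was 705, 360.0 and 488 CPM in the AKBA libraries and 639, 436 and 683 CPM in the controls, in the order 1, 2 and 3 used for all genes from here on. Here AKBA library 2, the highest for Acta1, was the lowest. The fold change was -0.18 ± 0.28 on the log2 scale (adjusted p = 0.813 by edgeR). Tnnt3 and Tnni2, the fast troponin T that ties the complex to tropomyosin and the fast troponin I that blocks actin at rest, both had control library 2 lowest and AKBA library 2 highest, with a highest library 2.02 and 2.01 times the lowest.

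Fast troponin C was close to the floor in the same libraries. Tnnc2, the calcium sensor of the fast troponin complex, had 15, 10 and 4 counts with AKBA gel and 19, 5 and 5 with control gel. Its mean was 0.582 FPKM, so that its partners Tnnt3 and Tnni2 stood 552 and 366 times higher per length. The slow troponin C, Tnnc1, was low too, at 4, 8 and 19 counts and 3, 3 and 22 counts. The low Tnnc2 value was shared by all 6 libraries, with a log2 fold change of 0.06 ± 0.70 (adjusted p = 0.978 by edgeR). Tnnc2 was singled out after its values had been seen.

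The annotation places Tnnc2 on chromosome 2 (164777161 to 164779967, reverse strand) across the end of Ube2c, a ubiquitin-conjugating enzyme of the cell cycle on the opposite strand. Their exons share 592 bases, and 55% of the stretches of 50 bases in the 700-base Tnnc2 transcript also occur in Ube2c transcripts, read on either strand. Ube2c had 345, 377 and 744 counts with AKBA gel and 429, 850 and 520 with control gel. Strand-specific counting is not stated in the sources used here, and how far this overlap bears on the counts of Tnnc2 was not tested. No stretch of 50 bases was shared with Tnnc1 (0%).

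Across all members, 16 of 34 shared exonic bases with another annotated gene, always on the opposite strand. The partner was protein-coding for 3 members besides Tnnc2. These were Atp2a1 with Rabep2 (763 bases), Myom1 with Myl12a (207 bases) and Mb with Apol6 (64 bases). The shared bases are a smaller part of these transcripts than of Tnnc2, and how far they bear on the counts was not tested. The members lie on 13 chromosomes.

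The thick filament genes held the only member with an unadjusted p under 0.05 and the member with the widest spread. Myh1, the type IIx myosin heavy chain, was at 2444, 1604 and 1412 CPM with AKBA gel and at 982, 1021 and 1419 CPM with control gel. AKBA libraries 1 and 2 lay above all controls, while AKBA library 3 lay just under control library 3. The log2 fold change of Myh1 was 0.67 ± 0.26 (adjusted p = 0.351, unadjusted p = 0.036 by edgeR). In the authors' deposited table its log2 fold change was 0.7.

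Myh2, the type IIa heavy chain, was at 713, 459 and 442 CPM with AKBA gel and at 284, 216 and 623 CPM with control gel. Control library 3 stood with the AKBA libraries, far above the other controls. Its log2 fold change was 0.52 ± 0.40 (adjusted p = 0.594 by edgeR).

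Myh4, the type IIb heavy chain, was at 118, 42.6 and 747 CPM with AKBA gel and at 2226, 669 and 83.5 CPM with control gel. The highest library was 52.2 times the lowest, which put it at rank 23 of the 12261 genes with a mean of at least 5 CPM. This spread lay within the treatments, with a 17.5-fold range among the AKBA libraries and a 26.7-fold range among the controls. The log2 fold change was -1.71 ± 1.26 (adjusted p = 0.581 by edgeR), and single libraries moved it widely. Without control library 1 it was -0.31, and without AKBA library 3 it was -3.62.

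As shares of the summed FPKM of Myh1, Myh2 and Myh4, the type IIb chain took 3.89%, 2.19% and 30.4% with AKBA gel. In the controls it took 65.6%, 36.8% and 4.28%. Myh1 took 76.3%, 78.0% and 54.4% against 27.4%, 53.2% and 68.8%, and Myh2 took 19.8%, 19.8% and 15.2% against 7.05%, 10.03% and 26.9%. Control library 1 was thus the only library in which Myh4 was the leading fast myosin, and AKBA libraries 1 and 2 and control library 3 formed the low end. The mean share of Myh4 was 12.2 ± 15.8% with AKBA gel and 35.5 ± 30.7% with control gel (SD, n = 3 each), a difference of -23.4 percentage points that was smaller than the spread among the controls.

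Reads of these genes can be shared between close copies. Of the stretches of 50 bases in the Myh1 transcript, 19.7% also occur in Myh2 and 10.5% in Myh4, so the split between the 3 is uncertain by an amount that was not tested. Acta1 shared no such stretch with the cardiac actin Actc1 or the smooth muscle actin Acta2.

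**Figure D2:**
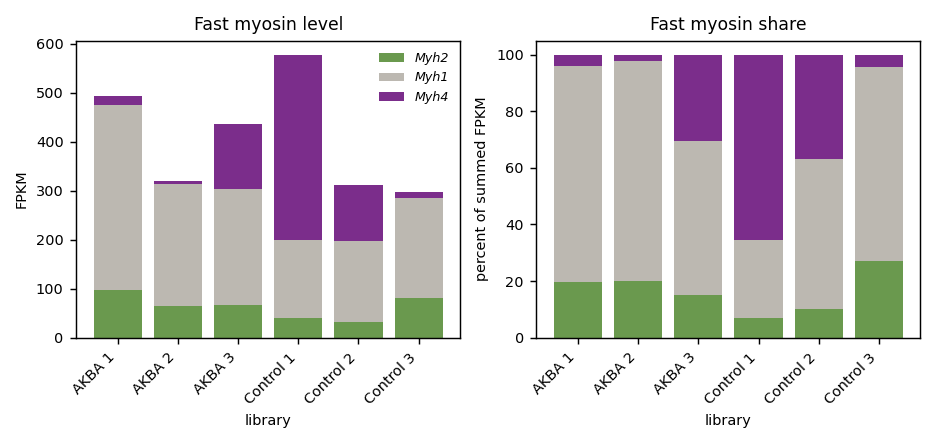
Stacked bars of Myh2 (type IIa), Myh1 (type IIx) and Myh4 (type IIb) in each library, as FPKM in the left panel and as percent of their summed FPKM in the right panel. The Myh4 share runs from 2.19% to 65.6%, with high and low libraries under both treatments.

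The fast light chains and a fast myosin-binding protein completed the thick filament. Mylpf, the regulatory light chain, and Myl1, the essential light chain, ranged over 2.23-fold and 2.04-fold between libraries, with log2 fold changes of 0.27 ± 0.29 and 0.12 ± 0.28 (adjusted p = 0.721 and 0.881 by edgeR). Mybpc2, the fast form of myosin-binding protein C, was at 81.1, 107 and 140 CPM with AKBA gel and at 258, 109 and 62.0 CPM with control gel. It was singled out after its values had been seen. Its extremes, control libraries 1 and 3, were both controls, and its log2 fold change was -0.39 ± 0.48 (adjusted p = 0.757 by edgeR).

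**Figure D3:**
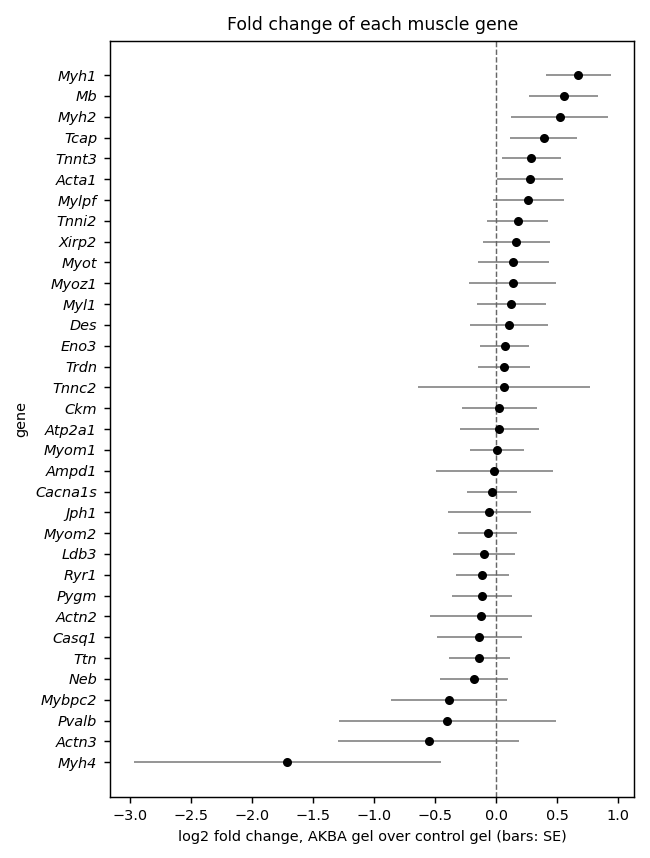
Log2 fold change of AKBA over control for the 34 members by edgeR, as points with bars of 1 SE on each side, ordered from highest to lowest, with a dashed line at 0. For 26 members the point lies within 0.3 of 0, Myh1 is the farthest above at 0.67 and Myh4 the farthest below at -1.71 with an SE of 1.26.

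The Z disc, titin and M band genes did not pass the test either, with log2 fold changes from -0.55 to 0.39 and adjusted p of at least 0.559 by edgeR. Ttn encodes titin, the spring that spans from Z disc to M band. It was at 1273, 793 and 965 CPM with AKBA gel and at 1277, 818 and 1242 CPM with control gel. The libraries numbered 2 were the lowest under both treatments, and the log2 fold change was -0.14 ± 0.25 (adjusted p = 0.842 by edgeR).

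Des encodes desmin, the intermediate filament that links neighbouring Z discs, which smooth muscle also expresses. Its level was 595, 550.3 and 335 CPM with AKBA gel and 380.5, 326 and 670 CPM with control gel. Its highest library was control library 3, and its log2 fold change was 0.11 ± 0.32 (adjusted p = 0.915 by edgeR).

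Actn3, the alpha-actinin of fast glycolytic fibres, was at 53.4, 76.0 and 124.7 CPM with AKBA gel and at 269, 79.0 and 25.0 CPM with control gel. As for Myh4, control library 1 was the highest and AKBA library 3 the next. The log2 fold change was -0.55 ± 0.74 (adjusted p = 0.780 by edgeR), and it was 0.71 without control library 1. Its relative Actn2, the alpha-actinin of all fibre types, ran the other way. Actn2 was at 369, 204 and 149 CPM with AKBA gel and at 156, 231 and 401 CPM with control gel, so that control library 1 and AKBA library 3 were its lowest. Of the Actn3 transcript, 0.0705% of the stretches of 50 bases occur in Actn2.

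The other 7 genes of this group ranged less than 3-fold between libraries. They were Tcap, which caps titin at the Z disc, the Z disc proteins Myoz1, Ldb3 and Myot, the actin-binding Xirp2, and the M band genes Myom1 and Myom2. Tcap had the highest fold change, 0.39 ± 0.27 on the log2 scale (adjusted p = 0.559 by edgeR), and Myom1 one of the closest to 0, at 0.01 ± 0.22 (adjusted p = 0.992).

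The calcium genes had log2 fold changes from -0.40 to 0.06, with adjusted p of at least 0.856 by edgeR. Atp2a1, the calcium pump of fast fibres, was at 868, 911 and 915 CPM with AKBA gel and at 1401, 599 and 644 CPM with control gel. The AKBA libraries lay close together and between the extremes of the controls, and the log2 fold change was 0.03 ± 0.32 (adjusted p = 0.979 by edgeR). Ryr1, the calcium release channel, was at 279, 193 and 227 CPM with AKBA gel and at 292, 181 and 283 CPM with control gel. Its fold change was -0.11 ± 0.22 on the log2 scale (adjusted p = 0.856 by edgeR), with the libraries numbered 2 again lowest.

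Pvalb encodes parvalbumin, a cytosolic calcium buffer that speeds relaxation in fast fibres. It was at 30.3, 87.5 and 91.1 CPM with AKBA gel and at 212, 51.7 and 11.5 CPM with control gel. Its range of 18.5-fold was at rank 58 of the 12261 genes, and the control libraries spanned all of it. The log2 fold change was -0.40 ± 0.89 (adjusted p = 0.878 by edgeR), and 1.15 without control library 1.

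The partners of the release channel shared their lowest library. Cacna1s, the voltage sensor of the transverse tubule, Trdn, the junctional protein triadin, Casq1, the calcium-binding store protein, and Jph1, which holds the junction together, all had control library 2 as their lowest. Their highest library was 1.74, 1.75, 2.85 and 2.86 times the lowest, and was control library 1 for all but Trdn, for which it was AKBA library 1.

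Among the energy genes, Ckm, the muscle creatine kinase, was at 378, 463 and 402 CPM with AKBA gel and at 633, 292 and 295 CPM with control gel. Its AKBA libraries lay between the extremes of the controls, with a log2 fold change of 0.03 ± 0.31 (adjusted p = 0.978 by edgeR). Mb, the oxygen-binding myoglobin of oxidative fibres, was at 285, 356 and 216 CPM with AKBA gel and at 154, 153 and 277 CPM with control gel. Control library 3 stood among the AKBA libraries, as for Myh2, and the log2 fold change was 0.55 ± 0.28 (adjusted p = 0.440 by edgeR). The glycolytic enolase Eno3, the glycogen phosphorylase Pygm and the AMP deaminase Ampd1 were all highest in control library 1 and lowest in control library 2, with ranges of 1.68-fold, 1.96-fold and 4.04-fold.

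To set the makeup of the members apart from their summed level, each member was divided by the summed count of all members in its library. That sum is no general measure of muscle RNA, since other sarcomere genes ordered the libraries differently, as given further on. The SD of log2 values over the 6 libraries was then smaller than that of log2 CPM for 30 of the 34 members. The median SD was 0.31 for the share and 0.43 for CPM, and 17 members had an SD under 0.3 as a share, against 3 as CPM. Cacna1s (0.08), Trdn (0.09) and Eno3 (0.13) kept the steadiest share of the muscle counts. Acta1 had an SD of 0.20, and took 17.6%, 22.5% and 16.4% of the summed counts with AKBA gel and 15.5%, 15.8% and 18.2% with control gel.

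Only 3 members had an SD of the log2 share above 1, namely Myh4 (2.25), Pvalb (1.41) and Actn3 (1.11). Mybpc2 had 0.68 and Actn2 0.67. For Myh4, Pvalb, Actn3 and Mybpc2, control library 1 was the highest and AKBA library 3 the next highest in CPM, so the libraries rich in these transcripts came from different treatments. All 34 members were counted in the same 6 libraries, and Myh4 alone was up to 14.5% of the summed counts, so the shares of different members are not independent of each other.

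**Figure D4:**
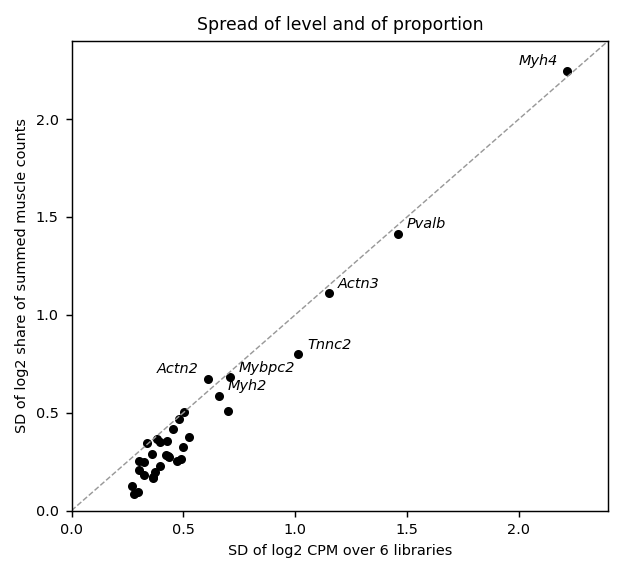
SD of log2 values over the 6 libraries for each member, as CPM on the horizontal axis and as a share of the summed member counts on the vertical axis, with a dashed line of equality and names on the widest members. Of the 34 members 30 lie under the line, and Myh4, Pvalb and Actn3 lie above 1 on both axes.

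A further pattern across libraries went with transcript length, which was read from the ratio of deposited counts to FPKM. The length limits were chosen after the values had been seen. Of the 9 members under 1500 bases, AKBA library 2 had the highest share of the summed counts for 6. Of the 4 members of 10000 bases or more, Neb, Ttn, Ryr1 and Xirp2, it had the lowest for 3, and of the 21 others it had the highest for 2 and the lowest for 3. Over all genes the same library had short genes high and long genes low, with a median log2 deviation from the mean of the libraries of 0.20 for the 817 genes under 1000 bases and -0.14 for the 984 genes of 10000 bases or more. Members and all genes did not go together in every library. In control library 3 the median log2 deviation of genes of 10000 bases or more was -0.16 over all genes and 0.32 for the shares of the 4 long members, and in AKBA library 3 it was 0.16 and -0.01. The part of transcript length in the values of single members, such as the low Neb and Ttn of AKBA library 2, was not tested.

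The other genes of the sarcomere, of excitation and of muscle energy gave 0 calls as well, by edgeR and by DESeq2. Of 30 further sarcomere genes, all tested, 0 passed the adjusted threshold, 0 were higher and 1 was lower at an unadjusted p under 0.05, and the median log2 fold change was -0.06. That gene was Xirp1, an actin-binding protein of injured or remodelling muscle, at -1.24 ± 0.52 (adjusted p = 0.367 by edgeR). The highest in mean CPM, the measure by which genes of these lists were picked and which is not per length, were the tropomyosins Tpm2 and Tpm1, which lie along actin, with log2 fold changes of 0.09 ± 0.21 and 0.00 ± 0.17. Of 24 further excitation and calcium genes, 0 passed, 1 was lower at an unadjusted p under 0.05, and the median was 0.03. It was Musk, the receptor kinase of the neuromuscular junction, which had 24, 24 and 23 counts with AKBA gel and 45, 38 and 44 with control gel (-0.78 ± 0.25, adjusted p = 0.334 by edgeR). The highest of this list in mean CPM were Srl, a calcium-binding protein of the sarcoplasmic reticulum, and Tmem38a, its potassium channel, with log2 fold changes of -0.04 ± 0.18 and 0.18 ± 0.20.

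Of 15 further muscle energy genes, 0 passed the adjusted threshold and 0 had an unadjusted p under 0.05, with 12 above 0 and a median of 0.14. The aldolase Aldoa, which many tissues express, and the mitochondrial carrier Slc25a4 were the highest in mean CPM, with log2 fold changes of 0.02 ± 0.19 and 0.15 ± 0.16. Of 8 atrophy genes, 0 passed by edgeR or DESeq2. At an unadjusted p under 0.05 there was 1, Fbxo32, a ubiquitin ligase of wasting muscle, at 0.42 ± 0.14 (adjusted p = 0.336 by edgeR). The highest of these in mean CPM, Ctsl and Foxo3, are expressed in many cell types and stood at 0.00 ± 0.21 and 0.07 ± 0.11.

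Several defining genes of slow, cardiac and developing muscle had low counts, and some were at 0. Myh7, the slow and cardiac heavy chain, had 0, 5 and 45 counts with AKBA gel and 5, 0 and 52 with control gel. Myh6, a cardiac heavy chain, had 0 to 6. Nppa, an atrial hormone, had 0 or 1. Myh3, the embryonic heavy chain, had 90, 76 and 52 counts against 34, 25 and 218, and Pax7, the satellite cell factor, 4 to 18. In the cardiac list Tnnt2, a troponin T, had 67 to 169 counts and Actc1, the cardiac actin, 4 to 161. These counts cover a handful of markers per tissue, and those of close myosin copies can share reads.

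Of the slow fibre list 7 of 10 genes passed the filter on low counts and 0 passed the adjusted threshold by edgeR or DESeq2. At an unadjusted p under 0.05 it held 1 lower gene, Atp2a2, the calcium pump of slow fibres and of many other cells, at -0.43 ± 0.16 (adjusted p = 0.340 by edgeR). Atp2a2 and Tpm3, a tropomyosin also found outside muscle, had its highest mean CPM. Of the cardiac list 7 of 10 genes passed the filter and 0 passed the threshold by edgeR. Its 1 lower gene at an unadjusted p under 0.05 was Nppb, a natriuretic peptide, with 5, 8 and 9 counts with AKBA gel and 19, 63 and 75 with control gel (-2.76 ± 0.56, adjusted p = 0.332 by edgeR and 0.00273 by DESeq2). Tnnt2 and Actc1 had the highest mean CPM of that list. Of the developing or regenerating muscle list 9 of 13 genes passed the filter, with 0 past the threshold by edgeR or DESeq2 and 0 at an unadjusted p under 0.05. Ncam1, which nerve also expresses, and Myh8, the perinatal heavy chain, had its highest mean CPM.

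Smooth muscle and other cells of the skin also left their markers in the libraries. The smooth muscle list of 10, which includes Des, had a median log2 fold change of -0.25 with 0 past the adjusted threshold by edgeR or DESeq2. At an unadjusted p under 0.05 it held 1 lower gene, Acta2, its defining actin, at -0.53 ± 0.20 (adjusted p = 0.340 by edgeR). Relative to their own mean over the libraries, the summed muscle members were at 1.14, 1.03 and 0.913 with AKBA gel and at 1.24, 0.704 and 0.971 with control gel. The 8 adipocyte markers followed at 1.04, 0.946 and 0.915 against 1.15, 0.754 and 1.20, where control library 2 was again the lowest. The 30 further sarcomere genes were at 1.19, 0.987 and 0.806 with AKBA gel and at 0.924, 0.80 and 1.30 with control gel. Control library 3 was thus their highest, while control library 1 was the highest for the members. The 8 fibroblast markers were at 0.823, 0.794 and 1.05 against 1.43, 1.13 and 0.769. In control library 2 this sum was above its mean, where the muscle sum was at its lowest. The collagens Col1a1, Col1a2 and Col3a1 made up most of it, with mean levels of 7451, 6608 and 8571 CPM. Single markers differed in control library 2, where Pdgfra was at its highest (212 CPM) and Lum at its lowest (477 CPM). The 6 basal keratinocyte markers were at 0.850, 0.605 and 0.757 against 0.790, 1.16 and 1.83. Krt14 made up most of this sum, with a mean of 11243 CPM. Krt5, Krt14, Itga6 and Itgb4 were each highest in control library 3. Krt15 was lowest there (196 CPM), and Col17a1 was highest in AKBA library 2 (911 CPM). The part of these other cells in the muscle values was not tested.

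**Figure D5:**
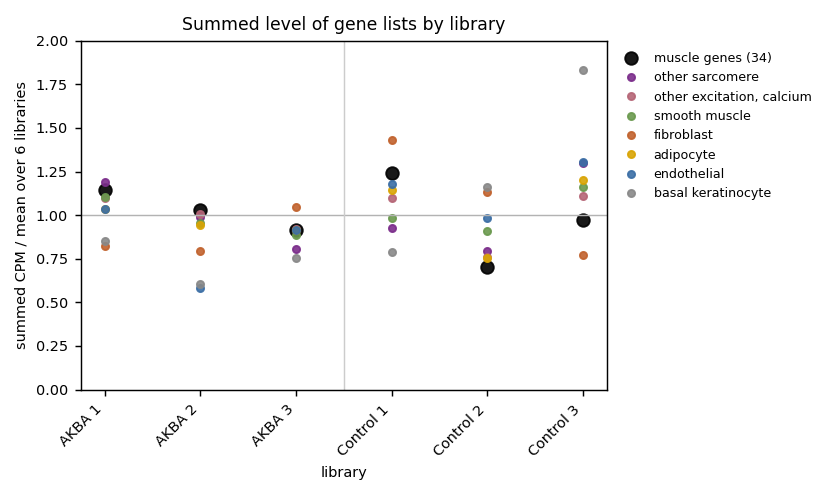
Summed CPM of the muscle members (large black points) and of 7 other gene lists (small coloured points, see legend) in each library, divided by the mean of that list over the 6 libraries, with AKBA libraries left and control libraries right of the vertical line. The muscle members run from 0.704 to 1.24, with control libraries 2 and 1 as the extremes. The smooth muscle list includes Des, itself a member, which has its highest mean level (476 CPM, next Acta2 at 95.9 CPM), so its points largely follow Des.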

How the data were processed

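The 34 members and the other gene lists were chosen with earlier results of these data known. The authors deposited a table of counts and FPKM (counts scaled by library size and transcript length) per library, and their own comparison with a log2 fold change, a p-value and its adjusted form per gene, whose method the file headers do not name. The tools named per the submitters' processing notes are CASAVA 1.8, RSEM and edgeR, with the build GRCm38. Whether the deposited counts are rounded RSEM estimates is not stated there. Per the labels' protocols, epidermis was freed from dermis with Dispase II, RNA came from TRIzol, and libraries from a TruSeq RNA kit.

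All 6 libraries were fitted by group with edgeR 4.0.16 in R 4.3.3 (TMM scaling, default filter with a minimum count of 10, 17023 of 47729 genes tested, 19134 without a count, 2-sided quasi-likelihood F test, Benjamini-Hochberg over all genes tested, threshold 0.05). The SE is the log2 fold change divided by the square root of F. CPM are deposited counts divided by the TMM-scaled library size. FPKM, as deposited, served for levels between genes. No 2 libraries within a treatment agreed within sampling noise (lowest ratio of chi-square to degrees of freedom 30.8). The fit was also run on simulated counts in which every gene had the same spread setting. That run does not cover genes as variable as Myh4. Same-numbered libraries deviated with correlations of 0.07, 0.02 and -0.33, so numbers were not treated as pairs. Values are given for Myh1, Myh2 and Myh4, for the 2 members per role with the highest mean CPM (not per length), and for the 3 largest and 3 smallest fold changes. Of each other list, the 2 genes with the highest mean CPM are named. Mybpc2, Tnnc2 and genes with an unadjusted p under 0.05 were added after their values were seen. Alternatives were other scalings and filters, DESeq2 1.42.0, a replicate block, and libraries left out. Gene positions and exons are from GENCODE M21, and 3 list genes were found under older symbols.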

Additional observations from a re-analysis of the deposited data

How the results depend on the processing

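By edgeR 0 members passed the adjusted threshold in every fit, including each fit without 1 library, and DESeq2 called 0 members. Over all genes edgeR called 14 without control library 1 and 0 in the other fits. The median log2 fold change of the members ran from -0.18 (without control library 2) to 0.38 (without control library 1) over the fits that left out 1 library each, beside medians over all genes tested from -0.0055 to 0.015. Members without overlap numbered 0 to 10 in these fits, beside 24.9% to 37.3% of all genes. The 10 arose without control library 1, all higher with AKBA gel (37.3% of all genes), and 4 each arose without AKBA library 3 (36.3%) and without control library 3 (25.1%). With deposited FPKM there was 1, Myh1 (17.4%). Leaving out AKBA library 2 and control library 3 together, a choice made after seeing the data, left 4 (32.8%).

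In that fit the log2 fold change was 0.15 for Neb, 0.10 for Ttn, -0.17 for Atp2a1, 0.095 for Ryr1, -0.25 for Ckm and -0.32 for Tnnc2, each reversed in sign. Over the fits without 1 library it ran from -0.47 to 0.025 for Neb, -0.34 to 0.0094 for Ttn, -0.092 to 0.48 for Des, -0.20 to 0.54 for Atp2a1, -0.31 to 0.013 for Ryr1, -0.17 to 0.51 for Ckm, -1.04 to 0.71 for Actn3, -0.92 to 1.15 for Pvalb, -0.75 to 0.36 for Mybpc2 and -0.40 to 1.04 for Tnnc2. These fits had fewer libraries, and the cause was not tested further. Myh1 (0.40 to 0.86), Myh2 (0.24 to 1.10), Myh4 (-3.62 to -0.31), Acta1 (0.07 to 0.44) and Mb (0.37 to 0.90) kept their direction in these fits. The log2 ratio of the summed level ran from -0.11 to 0.30, and the Myh4 share difference from -39.0 to -8.37 percentage points.

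With the replicate number as a block, 0 members passed, the median was 0.13, and Pvalb was at 0.42. AKBA library 1 deviated most like control library 3 (correlation 0.38), and AKBA library 3 most like control library 2 (0.43). AKBA library 2 correlated at 0.019, 0.018 and -0.035 with control libraries 1, 2 and 3. Depth limits Tnnc2, at 4 to 19 counts, and the near-zero markers.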

Other observations

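Several listed muscle genes that are no members followed or opposed the type IIb genes in part of the libraries. They were picked after their values had been seen, and no test was made. Mstn, the muscle growth inhibitor myostatin, had 92, 131 and 270 counts in AKBA libraries 1, 2 and 3 and 659, 55 and 57 in control libraries 1, 2 and 3. Actc1, the cardiac actin, had 16, 4 and 86 against 161, 22 and 12. For both, control library 1 was the highest and AKBA library 3 the next, as for Myh4. The match was partial for Mstn, since control library 2 was its lowest but stood above AKBA libraries 1 and 2 for Myh4. Ankrd2, a stretch-responsive sarcomere protein, had 589, 336 and 215 counts against 122, 419 and 958. Csrp3, a Z disc protein, had 1641, 1378 and 669 against 499, 1220 and 2605. For Ankrd2 and Csrp3 control library 1 was the lowest and AKBA library 3 the next lowest.

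Myh7 was above 5 counts only in AKBA library 3 (45) and control library 3 (52), and Tnnc1 was highest in the same libraries, at 19 and 22. Control library 3 held the highest count of the embryonic heavy chain Myh3, 218 beside 25 to 90.

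Of the remaining lists, edgeR called 0 genes. At an unadjusted p under 0.05, 0 of 8 fibroblast and 0 of 8 adipocyte markers, 2 of 6 endothelial markers (Pecam1 and Cdh5, lower with AKBA gel), 4 of 6 basal keratinocyte markers (Krt15 higher, Krt14, Itga6 and Itgb4 lower) and 2 of 6 suprabasal markers (Krt10 and Lor, higher) passed, beside 13.5% of all genes. DESeq2 called Krt14, Krt15 and Lor of these, beside 1.65% of all genes it tested.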
